A study of Homo sapiens with 8 samples.

Results

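The genes described here are 9 oncofetal genes, most of them active in the embryo or fetal liver, low in adult liver and often active again in liver cancer. They are the RNA-binding proteins IGF2BP1, IGF2BP2, IGF2BP3, LIN28A and LIN28B, the chromatin proteins HMGA1, HMGA2 and SALL4, and the cell-surface proteoglycan GPC3. They were taken by name from the 62663 genes of GENCODE 44 (20033 of them protein-coding, counted over chromosomes 1-22, X and Y). A peak was assigned to a gene when its summit, the position of highest signal, lay in the gene or within 20 kb of either end, which gave 73 of the 60474 peaks on these chromosomes.

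HepG2 cells, a wild-type line labelled as hepatocellular carcinoma, had been fixed with 0.1, 0.5, 1 or 5% formaldehyde (FA). They were then cryopreserved or flash-frozen, giving 8 bulk ATAC-seq libraries. The paper's list of abbreviations calls HepG2 a hepatoblastoma cell line. ATAC-seq marks open chromatin by the sites where the Tn5 transposase inserts adapters. All values come from the peak list of 1 library, 0.1% FA with cryopreservation, and the other 7 conditions were not analysed here. No replicate and no unfixed control was analysed here, so no value carries an error between replicates and no comparison between conditions was made. The strength of a peak is given as fold enrichment, the ratio of fragments at the summit to the local background after 1 was added to each, and as the number of fragments at the summit, which was solved from the deposited fold and p-value. Sequencing depth was not used here. A lower fold can come from fewer fragments at the summit or from a higher local background. Where fragments are fewer, bulk cells cannot tell apart fewer cells with an open site and a less open site in each cell.

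LIN28A and LIN28B bind the precursors of let-7 microRNAs and block their maturation. Let-7 in turn represses growth genes that include HMGA2, IGF2BP1 and LIN28B itself. The LIN28 proteins, let-7 and these targets thus form a circuit that is switched between fetal and adult cells. The IGF2BP proteins bind and stabilise messenger RNAs such as those of IGF2 and MYC, HMGA1 and HMGA2 bend AT-rich DNA, SALL4 is a zinc-finger factor of embryonic stem cells, and GPC3 is a clinical marker of hepatocellular carcinoma.

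Every one of the 9 genes had at least 1 peak, as did 88.3% of protein-coding genes. Within 1 kb of an annotated start, 7 of the 9 had a peak, against 66.6% of protein-coding genes (exact binomial 95% interval 65.9 to 67.2%, for counting error only). LIN28A and SALL4 were the exceptions. These start peaks were low in fold, and the highest start peak of the 7 genes had a median fold of 10.7 against 18.0 over the 13333 protein-coding genes with a start peak (quartiles 13.2 and 22.9). Only IGF2BP2, at 18.7, was above the median of all genes, at percentile 53.4. The others were HMGA1 at 12.7 (percentile 22.9), LIN28B at 12.6 (22.5), GPC3 at 10.7 (14.6), IGF2BP3 at 8.60 (7.84), IGF2BP1 at 8.56 (7.70) and HMGA2 at 7.37 (4.27). The members were not chosen for these values, but they were listed with earlier results of these data known, so the counts are a description.

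**Figure D1:**
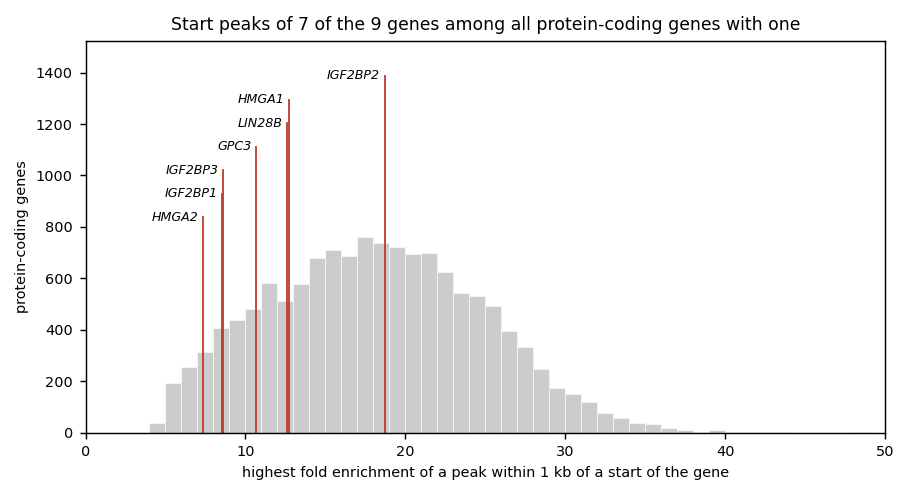
Histogram of the highest fold enrichment of a peak within 1 kb of a gene's start, over the protein-coding genes with such a peak, with red lines for 7 of the 9 genes (line heights only separate the names). All of them except IGF2BP2 lie below the first quartile of 13.2, at 7.37 to 12.7.

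Of the 73 peaks, 46 had their summit inside a gene of the set. By position, 41 peaks lay in introns of the canonical transcript, 17 upstream of the gene, 10 downstream, and 5 inside the gene but upstream of its canonical transcript (0 in an exon of a canonical transcript). Of the same 73, 13 lay within 1 kb of a start of their own gene, 3 at the start of another protein-coding gene, and 57 away from coding starts. The fold of the 73 peaks ran from 4.30 to 26.0 with a median of 10.7, the same as the median of all peaks. Their fragments ran from 6 to 102, with a median of 17 in both the members and all peaks.

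The 13 peaks at own starts had a median fold of 8.60 and a median of 24 fragments, against 14.1 and 32 for the 17794 peaks at any coding start. The 57 peaks away from coding starts had a median fold of 11.0 and 16 fragments, against 9.82 and 14 for the 42680 such peaks in the list. Own-start peaks thus had more fragments but a lower fold than the away peaks, by median. The away peaks include 3 each of LIN28A and SALL4, which had no own-start peak. The local background beneath the own-start peaks was higher, with a median of 1.68 fragments at own starts and 0.627 away. Over all peaks it was likewise higher at coding starts, at 1.35 against 0.407 away from them.

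**Figure D2:**
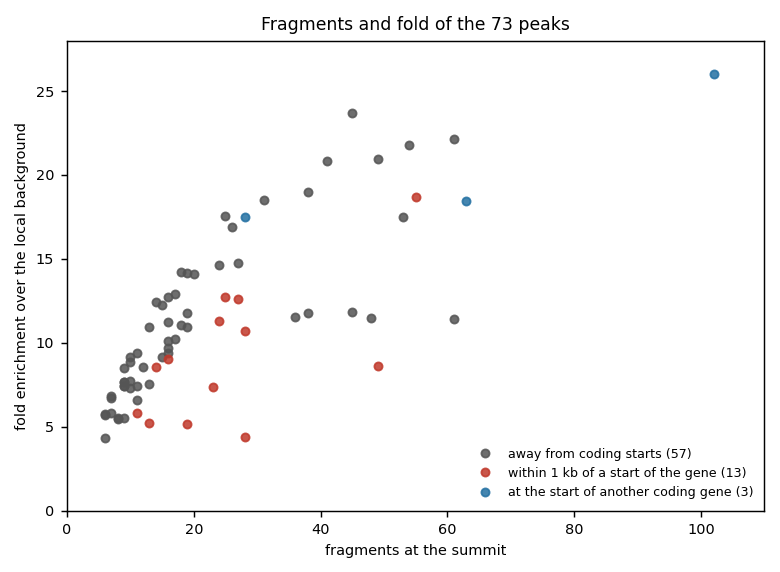
Fragments at the summit (x axis) against fold enrichment (y axis) for the 73 peaks, coloured by their place. At a like number of fragments most own-start peaks (red) have lower folds than the away peaks (grey), and the 3 peaks at starts of other coding genes (blue) have folds of 17.5 to 26.0.

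In 6 of the 7 genes with both kinds of peak, the highest away peak had a higher fold than every own-start peak. The same held for 37.2% of the 9548 protein-coding genes with both kinds and with 3 to 14 peaks, the range of the members. The ratio of the highest away fold to the highest own-start fold had a median of 1.86 over the 7 members and of 0.829 over those genes. Ranked by fragments, 4 of the 7 kept the order (IGF2BP1, IGF2BP3, HMGA1 and HMGA2), against 28.8% of those genes, and LIN28B and GPC3 turned. This comparison was chosen after the values had been seen, and genes were not matched for peak number within the range. The median number of summits per gene and flanks was 8 over all members and 4 over all protein-coding genes. How far peak number bears on the contrast was not tested.

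**Figure D3:**
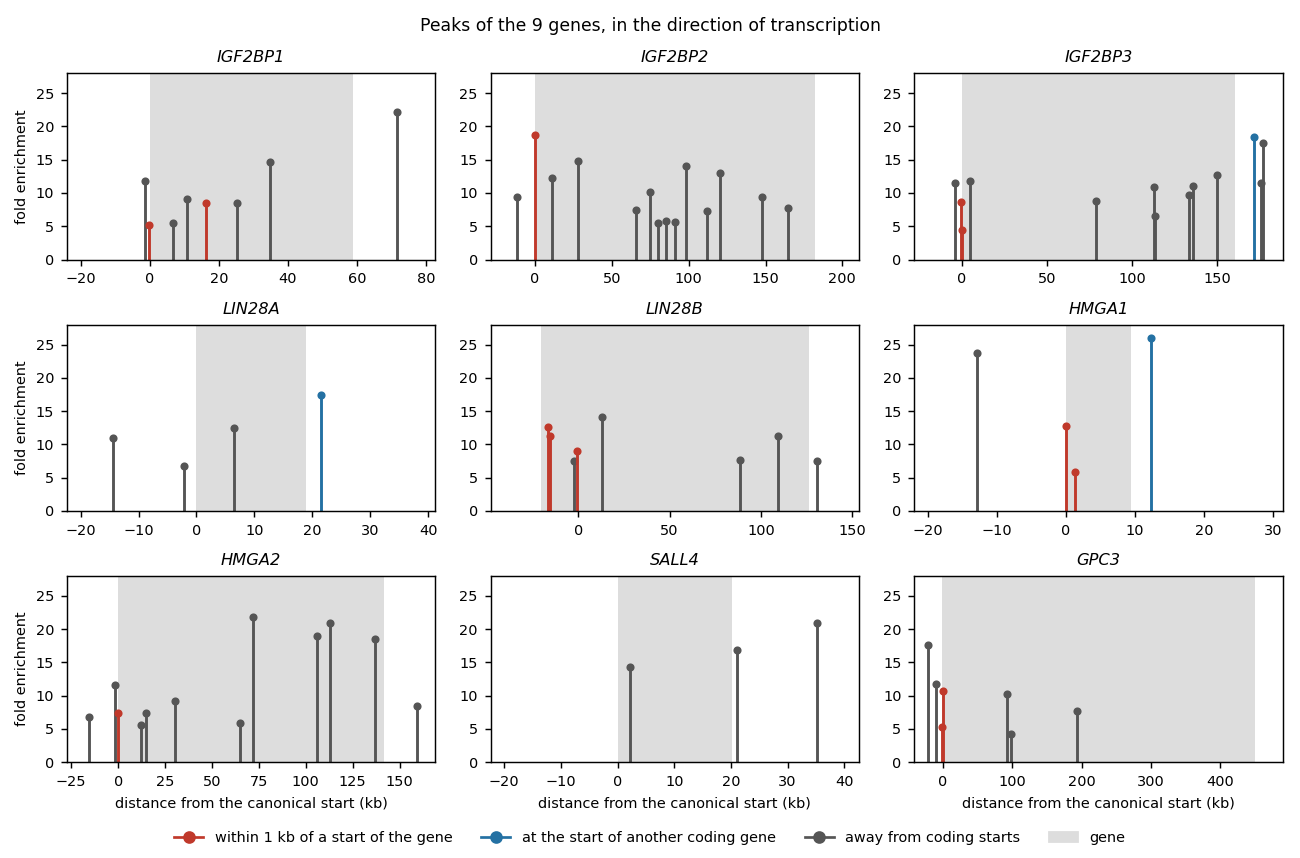
Peaks of each gene by distance of the summit from the canonical start in kb, in the direction of transcription, with fold enrichment as height and the annotated gene shaded. The tallest peaks stand away from the red start peaks in every gene with a start peak except IGF2BP2, and GPC3 has no peak in the far part of its gene.

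IGF2BP2 was the member with the strongest start. The gene (ENSG00000073792.16) spans chr3:185643130-185825042 on the minus strand, and its start peak of 362 bp had its summit 145 bp upstream of the canonical start, with a fold of 18.7 and 55 fragments. The 250 bases before this start, from RefSeq on GRCh38.p14, are shown because the summit lies in them and because GC boxes (GGGCGG, or CCGCCC on the other strand) are dense there. Capitals mark 7 GC boxes, some of them overlapping, and 1 match to the CTCF letters AGGNGGCAG. All sequences read in the direction of the gene, and a match is a description of the letters, not of a bound factor. Motifs were searched as fixed letters, so a site in another form is not marked.

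IGF2BP2 promoter, chr3:185825043-185825292: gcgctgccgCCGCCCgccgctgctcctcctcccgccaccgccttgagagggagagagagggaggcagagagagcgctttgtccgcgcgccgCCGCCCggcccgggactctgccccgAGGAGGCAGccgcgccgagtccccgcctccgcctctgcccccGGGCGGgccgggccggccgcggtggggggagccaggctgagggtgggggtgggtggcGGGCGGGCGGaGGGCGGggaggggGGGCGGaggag

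Of all 35116 RefSeq promoters of this length, 42.6% held a GC box and 3.85% the CTCF letters. In the 500 bases to either side of the canonical start the GC content was 78.1%, percentile 98.3 of protein-coding genes, and 80.7% of the 793 genes within 2.5 points of it had a start peak, with a median fold of 15.3. The other 13 peaks of the gene lay away from coding starts, at folds of 5.43 to 14.7, and 10 of the 14 peaks were in intron 2. The highest of these intronic peaks (14.7; 27 fragments; 393 bp) lay 24.3 kb from the nearest start, and a second (14.1; 20 fragments) lay 98.3 kb into the gene. One intron 2 peak with a fold of 7.28 lay 24 bp from the start of IGF2BP2-AS1, an antisense lncRNA. Of the 7 genes with both kinds of peak, IGF2BP2 alone had its highest peak at its own start by both fold and fragments.

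IGF2BP1 (ENSG00000159217.10, chr17:48997385-49056145, plus strand), a family member found mainly in the fetus and in tumours, had 8 peaks, and the lowest fold among them was at its canonical start. That peak, 197 bp upstream of the start and 304 bp from the start of the lncRNA ENSG00000250838, had a fold of 5.14 and 19 fragments. A wider peak of 630 bp, the widest of the set, had its summit 1240 bp upstream with a fold of 11.9 and 45 fragments, and its edge reached into the 1 kb window. The highest start value of the gene, 8.56 with 14 fragments, came from intron 2, 117 bp before an internal start and 75 bp from the start of the lncRNA ENSG00000251461. Intron 5 held a peak of 14.6 with 24 fragments. The GC content around the canonical start was 62.0%, and 76.8% of the 4135 genes of like GC content had a start peak, with a median fold of 19.4.

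The highest IGF2BP1 peak lay downstream of the gene, 71.7 kb from the canonical start, with a fold of 22.2 and 61 fragments over 364 bp. The nearest coding start was an internal one of IGF2BP1 at 42.7 kb, and the fold of the peak was higher than 91.4% of all peaks. Its 101 bases at the summit are shown as the strongest site of the gene, with capitals at a CCAAT box (ATTGG on this strand) and at the AP-1 letters TGACTCA.

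IGF2BP1 downstream peak, chr17:49069015-49069115: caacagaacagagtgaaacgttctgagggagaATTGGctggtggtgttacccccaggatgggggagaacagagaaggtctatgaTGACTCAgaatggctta

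IGF2BP3 (ENSG00000136231.14, chr7:23310209-23470491, minus strand) had 13 peaks and, at its start, the highest local background of the set. The summit nearest to the start, 89 bp upstream, had 28 fragments but a fold of 4.38, since the local background was 5.63 fragments. The next summits, at 794 and 3943 bp upstream, had folds of 8.60 and 11.4 with 49 and 61 fragments, and the farther of them lay 213 bp from the start of the lncRNA ENSG00000289109. A peak 2145 bp past the nearest start, in intron 2, had a fold of 11.8 with 38 fragments. With a start window of 500 bp, the start fold of IGF2BP3 was 4.38 in place of 8.60. Around this start the GC content was 49.1%, and 42.3% of the 1493 genes of like GC content had a start peak.

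The 250 bases before the IGF2BP3 start are shown because they hold the nearest summit and no GC box. Capitals mark 2 E-boxes (CACGTG), the letters that MYC and MAX bind, which 6.34% of RefSeq promoters hold.

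IGF2BP3 promoter, chr7:23470492-23470741: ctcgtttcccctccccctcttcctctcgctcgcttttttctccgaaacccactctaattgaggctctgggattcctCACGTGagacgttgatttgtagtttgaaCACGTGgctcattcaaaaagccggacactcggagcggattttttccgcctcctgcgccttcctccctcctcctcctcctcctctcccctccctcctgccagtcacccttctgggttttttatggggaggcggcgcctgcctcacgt

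Downstream of IGF2BP3 lay 3 peaks near MALSU1, a mitochondrial ribosome assembly gene. The peak 89 bp from the MALSU1 start had a fold of 18.5 with 63 fragments, and peaks 3955 and 4850 bp from it had 11.4 and 17.5. All 3 were nearer to MALSU1 than to a start of IGF2BP3, and the highest away peak nearer to IGF2BP3 was in intron 10, at 12.7 with 16 fragments. Between the summits in introns 2 and 3, 74.2 kb held none.

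LIN28A (ENSG00000131914.11, chr1:26410817-26429728, plus strand), which has 1 annotated start, had no peak within 1 kb of it. The nearest summit lay 2072 bp upstream with a fold of 6.70 and 7 fragments, among the thinnest of the set. The GC content around the start was 61.2%, near the median of 61.3% over all genes, but the CpG ratio (observed over expected) was 0.503 against a median of 0.725. Of the 4127 genes of like GC content, 75.5% had a start peak. Intron 2 held a peak of 12.4 with 14 fragments, 6427 bp past the start, and another peak lay 14.3 kb upstream with 11.0 and 13 fragments. The highest peak assigned to LIN28A, 17.5 with 28 fragments, lay 25 bp from the start of DHDDS, a dolichol synthesis gene. The intron 2 window is shown as the strongest site nearer to LIN28A than to another coding gene, with capitals at a CCAAT box on the opposite strand.

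LIN28A intron 2 peak, chr1:26417194-26417294: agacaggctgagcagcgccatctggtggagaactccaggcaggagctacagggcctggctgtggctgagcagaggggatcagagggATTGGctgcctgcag

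LIN28B (ENSG00000187772.8, chr6:104936616-105083332, plus strand), the paralog reactivated in many liver cancers, had 8 peaks and 3 of them within 1 kb of a start. The higher pair lay about an alternative start well upstream of the canonical one. One summit, 376 bp before that start and 37 bp from the start of the antisense lncRNA LIN28B-AS1, had a fold of 12.6 with 27 fragments. The other, 648 bp past it and 67 bp from LIN28B-AS1, had 11.3 with 24. At the canonical start the nearest peak was 895 bp upstream, with 9.05 and 16 fragments. Around the canonical start the GC content was 41.0%, percentile 6.24. Of the 952 genes of like GC content there, 18.6% had a peak at any of their starts. The summit windows of the higher pair, about the alternative start, had GC contents of 84.2 and 85.1%. The windows at both starts follow, and capitals mark 1 GC box in the first and the CTCF letters in the second.

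LIN28B alternative start peak, chr6:104940440-104940540: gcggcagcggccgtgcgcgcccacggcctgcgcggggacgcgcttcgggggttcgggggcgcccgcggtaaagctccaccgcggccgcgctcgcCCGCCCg
LIN28B canonical start peak, chr6:104956162-104956262: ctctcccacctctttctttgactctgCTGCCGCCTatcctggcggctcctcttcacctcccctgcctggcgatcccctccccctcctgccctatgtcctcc

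The highest LIN28B fold, 14.2, was in intron 2, 12.9 kb past the canonical start, but it rested on 19 fragments against 27 at the alternative start. Intron 3 held 2 peaks, of 11.2 and 7.67, the latter 48 bp from the snRNA pseudogene RNU6-1106P. Between introns 2 and 3, 75.7 kb had no summit.

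HMGA1 (ENSG00000137309.21, chr6:34236873-34246231, plus strand) is the shortest gene of the set at 9.36 kb and had 4 peaks. At its start, 50 bp upstream and 75 bp from the start of the lncRNA ENSG00000288879, the peak had a fold of 12.7 with 25 fragments, and a second start peak in intron 2 had 5.82 with 11. A peak 12.8 kb upstream had 23.7 with 45 fragments, higher than 93.8% of all peaks and the highest away peak of the set. The strongest of the 73 peaks, with a fold of 26.0 and 102 fragments, lay downstream of HMGA1 at 9 bp from the start of SMIM29. The HMGA1 promoter is shown beside the upstream peak because GC boxes mark both, 5 in each of them.

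HMGA1 promoter, chr6:34236623-34236872: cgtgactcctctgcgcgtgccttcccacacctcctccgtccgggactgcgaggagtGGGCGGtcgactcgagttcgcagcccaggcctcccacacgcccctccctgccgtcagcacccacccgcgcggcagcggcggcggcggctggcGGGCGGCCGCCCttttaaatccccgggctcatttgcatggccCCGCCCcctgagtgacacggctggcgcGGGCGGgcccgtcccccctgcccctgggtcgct
HMGA1 upstream peak, chr6:34224008-34224108: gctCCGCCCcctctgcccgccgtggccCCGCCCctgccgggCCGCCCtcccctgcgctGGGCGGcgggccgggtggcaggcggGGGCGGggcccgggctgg

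The start of HMGA1 had a GC content of 69.2%, and 83.0% of the 3351 genes of like GC content had a start peak, with a median fold of 17.6.

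HMGA2 (ENSG00000149948.14, chr12:65824460-65966291, plus strand), a let-7 target, had the lowest start fold and the highest ratio of away to start fold, 2.96. Its start peak, 255 bp upstream, had a fold of 7.37 with 23 fragments, and a peak 1414 bp upstream had 11.5 with 36. Stronger peaks lay deep in the gene. Intron 3 held 3 of them, at 21.8, 18.98 and 20.9 with 54, 38 and 41 fragments, and intron 4 held 1, at 18.5 with 31. The first of these, 600 bp wide, lay 71.8 kb past the canonical start. The remaining intronic peaks had folds of 5.53 to 9.18. Around the HMGA2 start the GC content was 63.7%, and the 3213 of 4115 genes of like GC content with a start peak had a median fold of 18.7.

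The start window and the highest intron 3 window of HMGA2 are given to set the GC-rich start against the distal site. Capitals mark a GC box and an E-box in the first, which is the only one of the 73 summit windows with an E-box, and the TEAD letters (CATTCC on this strand) in the second.

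HMGA2 start peak, chr12:65824155-65824255: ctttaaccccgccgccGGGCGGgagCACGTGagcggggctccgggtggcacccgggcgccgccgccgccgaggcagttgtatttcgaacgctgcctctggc
HMGA2 intron 3 peak, chr12:65896253-65896353: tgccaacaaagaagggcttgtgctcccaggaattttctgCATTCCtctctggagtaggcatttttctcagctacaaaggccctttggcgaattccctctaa

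SALL4 (ENSG00000101115.13, chr20:51782331-51802521, minus strand) had 3 peaks, with 0 within 1 kb of its 5 annotated starts. The nearest lay 1275 bp past a start, in intron 1, with a fold of 14.2 and 18 fragments. Its window, printed as the site nearest to the start, held none of the 15 searched motifs. These were matched as fixed letters, so a site in another form, of CTCF for example, was not counted. Downstream peaks had 16.9 with 26 fragments and 20.9 with 49, the latter 1071 bp from the start of ATP9A. With a window of 2500 bp, both SALL4 and LIN28A had a start peak, at 14.2 and 6.70, as did 70.9% of protein-coding genes. The GC content around the SALL4 start was 56.1%, and 67.7% of the 3165 genes of like GC content had a start peak.

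SALL4 intron 1 peak, chr20:51800261-51800361: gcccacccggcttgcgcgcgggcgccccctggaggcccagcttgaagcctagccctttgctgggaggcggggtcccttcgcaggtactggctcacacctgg

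GPC3 (ENSG00000147257.16, chrX:133535745-133987100, minus strand) is the longest gene of the set, at 451 kb, and the sparsest in peaks. It had 7, or 1.42 summits per 100 kb of gene and flanks, percentile 20.3 of protein-coding genes. Its main start peak, 203 bp upstream of a start and 525 bp wide, had a fold of 10.7 with 28 fragments, and a second start peak had 5.22 with 13. Upstream peaks had 11.8 and 17.6 with 19 and 25 fragments. Intron 2 held 3 peaks, at 10.2, 4.30 and 7.70, of which the 4.30 peak was the weakest of the 73, with 6 fragments. From the last of them to 20 kb past the end of the gene, 276.9 kb had no summit. Around its canonical start the GC content was 71.1%, and 83.7% of the 2799 genes of like GC content had a start peak, with a median fold of 17.2. The window of its main start peak held no searched motif.

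GPC3 start peak, chrX:133985770-133985870: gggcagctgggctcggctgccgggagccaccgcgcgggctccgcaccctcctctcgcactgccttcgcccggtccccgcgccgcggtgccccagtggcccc

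Across the set, the other genes were at or above the middle of all genes in peak density, with 4.28 (LIN28B) to 8.10 (IGF2BP1 and HMGA1) summits per 100 kb against a median of 4.14, at percentiles 51.5 to 78.7. The 9 genes had a median length of 141.8 kb, against 27.5 kb over all protein-coding genes, though LIN28A, HMGA1 and SALL4 are shorter than that. More than 1 summit within 1 kb of own starts was found in 5 of the 9, against 26.1% of protein-coding genes. This count takes all annotated starts of a gene together, and those of IGF2BP1 lay at different starts.

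The sequence at the summits was described by GC content and by 15 motifs within 50 bp, on both strands. Each motif was searched as fixed letters, so a site of the same factor in another form was not counted. The 13 own-start windows had a median GC content of 75.2%, against 67.3% for all start peaks. The other 60 windows of the members had 47.5%, against 50.5% for all peaks away from coding starts. These 60 include the 3 peaks at starts of other coding genes, a kind that this background leaves out. A GC box was found in 14 of the 73 windows, against 17.9% of all peaks, and 7 of these 14 were among the 13 own-start windows, against 43.1% of all start peaks. The TEAD letters GGAATG, bound by the effectors of the Hippo pathway, were in 12 of 73 windows, against 8.22% of all peaks. All 12 were among the 60 windows away from own starts, against 9.73% of all peaks away from coding starts. With 25 bp to either side the TEAD letters were in 6 of 73 windows, against 4.33%, and a GC box in 6, against 10.3%. A CCAAT box was in 14 windows, against 14.3% of all peaks. It was in 0 of the 13 own-start windows, against 19.6% of all start peaks. Of the other 60, 14 had it, against 12.1% of all peaks away from coding starts, and these 14 include the window at the SMIM29 start.

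Each of the other motifs was in 0 to 3 windows. FOXA letters TGTTTAC were in 3, against 4.79% of all peaks, GATA letters AGATAA in 2, against 4.57%, and HNF1 letters GTTAATNAT in 1, against 0.956%. Those of HNF4A (CAAAGTCCA), CEBP (TTGCGCAA) and YY1 (AAGATGGCG) were in 0, against 1.41%, 0.0827% and 0.271%. AP-1 letters TGANTCA were in 3, against 5.58%, and ETS (CCGGAAG), NRF1 (GCGCANGCG) and CTCF letters in 2 each, against 3.18%, 2.13% and 3.45%. TCF/LEF letters CTTTGATC were in 1, against 1.05%, and the E-box in 1, against 2.81%. The TCF/LEF match lay in the window at the SMIM29 start. An ETS match lay in the window at the MALSU1 start and an NRF1 match in that at the DHDDS start. The MALSU1 and DHDDS windows also held a GC box. With 73 windows these counts are too few to rank the motifs. The CTCF count and its background hold for the letters AGGNGGCAG alone, and neither is a count of CTCF sites.

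Genes that act with the set were compared by the share with a start peak. All 9 genes of let-7 and other microRNA processing had a start peak, with XPO5, the exporter of microRNA precursors, at a fold of 28.6 and DROSHA, which cleaves primary transcripts, at 25.2. All 6 genes that encode protein partners of the IGF2BP proteins had one, with YBX1 at 21.7 and PABPC1 at 18.8. Among growth genes that let-7 targets, 7 of 8 had one, with NRAS at 23.3, and CCND2, a D-type cyclin, lacked it. The processing and partner genes had median start folds of 18.8 and 16.9, near the 18.0 of all protein-coding genes with a start peak, and the 7 members with one had 10.7.

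Other fetal liver and hepatoblastoma genes had a start peak in 6 of 9, with EPCAM at 23.8 and SOX9 at 22.7. AFP, which encodes alpha-fetoprotein, and the imprinted H19 were among those with none. Of 10 pluripotency genes, 3 had one, SOX2 at 12.6, KLF4 at 9.07 and TDGF1 at 6.30. Paralogs of SALL4 and GPC3 had one in 5 of 8, led by GPC5 at 27.6 and GPC2 at 21.5, and SALL3, GPC4 and GPC6 had none.

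The cell line was checked in the same way. Of 10 hepatocyte markers, 9 had a start peak, with FGA at 25.4 and SERPINA1 at 21.7, and ALB lacked one. Of 12 markers of blood, endothelial, mesenchymal and neural cells, 5 had one, among them PDGFRB at 22.3, COL1A1 at 11.3, PECAM1 at 8.79 and CDH5 at 7.41. Whether cells of other types took part in any peak was not tested.

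**Figure D4:**
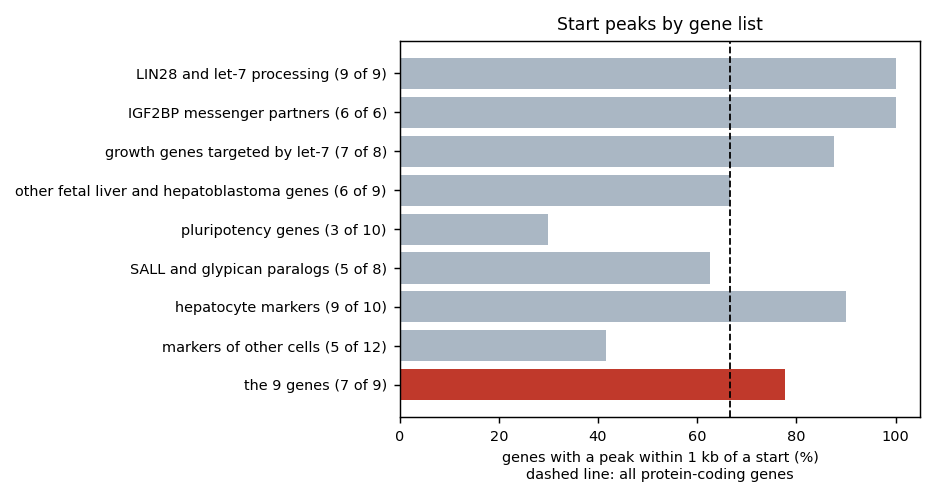
Share of genes with a peak within 1 kb of a start, by gene list, with the counts beside each name and a dashed line at 66.6%, the share of all protein-coding genes. The 9 genes (7 of 9, red) lie near the line, the microRNA processing and partner lists at 100%, and the pluripotency list lowest at 30%.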

How the data were processed

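Bulk ATAC-seq peaks of 1 of 8 HepG2 libraries were used, the one fixed with 0.1% FA and cryopreserved. Before deposit, the authors had trimmed adapters (cutadapt), aligned pairs to GRCh38 (Bowtie2), dropped PCR duplicates (samtools) and called peaks on this library alone (MACS2). Per the labels, bcl2fastq and deepTools 3.5.5 were also used. For MACS2, neither a version nor a shift of read ends to the Tn5 cut site, which would move summits by a few bases, is given in the sources used here. Peak names point to an alignment filtered for short fragments, and every fold and fragment number may thus rest on a subset of the library. For each of 60628 peaks the authors deposited a score, which was not used, a fold ratio at the summit, −log10 p and −log10 q values, and the summit position.

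Peaks were placed on GENCODE 44 (GRCh38), and all 60474 on chromosomes 1-22, X and Y ended inside the matching hg38 chromosome. Fragments at each summit were solved from fold and −log10 p, as tested on simulated data. They came within 0.01 of a whole number for 99.9% of 60512 peaks and for 73 of 73 described here, and 116 peaks were too strong to solve. One peak downstream of HMGA2 allowed 2 whole solutions. Each 50 bases at the 73 summits occurred once in hg38. RefSeq promoters matched 4 of the 9 genes. No test was possible with 1 library, and shares over all genes or peaks are given as background. The genes and lists were chosen with earlier results of these data known. Named genes are the 9 members, genes of the lists by start peak (those lacking one or, for pluripotency and other cells, having one, and the 2 with the highest fold) and genes with a start within 1 kb of a member's peak. ATP9A was named after its value was seen. Some list genes that this rule takes are not reported here by name. Tables were made in pandas 2.3.3 under Python 3.11.15, with intervals from scipy 1.17.1, arrays in numpy 2.4.6, sequence from samtools 1.23.1 and plots in matplotlib 3.10.9.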

Additional observations from a re-analysis of the deposited data

How the results depend on the processing

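Of 35 alternatives computed, 5 moved the value past the limit set for it (1.5 times for a count) and 30 did not. Counting only summits inside the genes gave 46 peaks in place of 73, and a start window of 2500 bp gave 9 of 9 genes with a start peak in place of 7. A tolerance of 0.002 in place of 0.01 left 99.0% of solved peaks with whole fragments. With 25 bp to either side of the summit, GC boxes and TEAD letters each fell to 6 of 73 windows. The share with a GC box was above that of all peaks within 50 bp (19.2 against 17.9%) but below it within 25 bp (8.22 against 10.3%) and over the whole peak (24.7 against 26.4%). The median start fold stayed between 9.05 and 11.9 under every window and filter tried, against 17.9 to 18.5 over all genes. The order of away and start peaks by fragments, with peaks at other coding starts counted as away, and with a 2500 bp window was tried after seeing the data. With peaks at other coding starts counted as away, the highest away peak led in 6 of 7 members, against 52.1% of genes. The 2500 bp window gave 8 of 9 members, against 35.8% of genes. No paired analysis was possible because 1 of the 8 libraries had a peak list here, and for the same reason no replicate could be left out. Peaks with 6 to 10 fragments are the least certain.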
